A study of Mus musculus with 4 samples.

Results

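The nuclear genes of oxidative phosphorylation were followed through the immune cells of an intracranial glioma, class by class and mouse by mouse. The members were all genes whose symbol begins with Ndufa, Ndufb, Ndufc, Ndufs, Ndufv, Uqcr, Cox4, Cox5, Cox6, Cox7, Cox8 or Atp5 and that had at least 200 UMIs over all deposited barcodes, a UMI being one counted RNA molecule. Of all genes in the files 11822 reached that number, and of 92 genes with such a symbol 87 did. By complex, the 87 members were 37 genes of complex I, 8 assembly factors of complex I (Ndufaf1 to Ndufaf8), 8 genes of complex III, 17 of complex IV and 17 of ATP synthase. Counted among these by their symbols are Ndufb1-ps, with complex I, which is listed as a non-coding RNA, and Cox5b-ps, with complex IV, a near copy of Cox5b. Ndufa4, long filed under complex I, was counted with complex IV, of which it is now known to be a subunit. None of the members was a marker for assigning cells to a class. They did count in the totals and doublet scores by which cells were left out.

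Live CD45+ leukocytes of C57Bl/6 mice were taken by sorting from the brain hemisphere that bore the tumor, 14 days after implantation of CT2a, a mouse glioma line, and profiled by droplet single-cell RNA sequencing. One group was WT, the other CaMKK2 KO, a germline deletion of the kinase in the whole host, so that every cell of these mice lacked the gene while the implanted tumor did not. Each group held 4 mice, told apart by hashtag antibodies and numbered here by hashtag, and both groups carried the same tumor and no other treatment. The 4 mice of a genotype shared a single 10X channel, so genotype and channel cannot be told apart, and the mice were the replicates in all comparisons.

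Depth was 14920001 to 19024175 UMIs per WT mouse and 11927367 to 20320715 per CaMKK2 KO mouse in the 10679 cells kept, at a median of 12592 and 11457 UMIs per cell. The RNA of Camkk2 itself stood at 28.1, 29.6, 39.0 and 27.9 counts per 1000000 UMIs (CPM) in the WT mice and at 14.8, 18.4, 13.3 and 22.7 CPM in the CaMKK2 KO mice, without overlap. The counts come from 3′ ends, which may lie outside the deleted part of the gene. Marker genes placed 8900 cells in a class and left 1779 in none, 16.8% of WT and 16.6% of CaMKK2 KO cells, and 42 cell barcodes occurred in both libraries. The gates behaved as labelled on single markers: P2ry12 was found in 97.7% of microglia, Cd3e in 97.8% of T cells, Ncr1 in 88.3% of NK cells and Cd79a in 100% of B cells. These genes were part of the gates and are given as a description.

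Oxidative phosphorylation makes ATP in the inner mitochondrial membrane. Complexes I, III and IV pass electrons from NADH to oxygen and pump protons, and ATP synthase lets the protons flow back to drive ATP production. Mitochondrial DNA encodes only a handful of the subunits, mostly of the catalytic core, and nuclear genes encode all others, whose promoters are known for sites of NRF1, of ETS factors such as GABP, and of YY1. Several subunits of complex IV exist as paralogs: Cox4i2 is known from lung and from cells at low oxygen, Cox6a2 and Cox7a1 from heart and skeletal muscle, and Cox6b2 from testis.

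Of the 87 members, 71 had an entry in a RefSeq table of mouse promoters on GRCm38.p6, which gives 250 bases before and 50 bases after each start. NRF1 letters (GCGCANGCG, on either strand, overlapping matches counted as 1) were found in 20 of the 71 members, 28.2%, and in 7.03% of the 27025 genes of the table. ETS letters (CCGGAAG) were found in 17 members, 23.9%, and in 9.93% of all genes, and YY1 letters (AAGATGGCG) in 8 members, 11.3%, and 1.64% of all genes. The core of the hypoxia response element (ACGTG) was found in 16 members, 22.5%, near the 21.8% of all genes: Atp5d, Atp5g1, Atp5g2, Atp5g3, Atp5l, Atp5pb, Cox5a, Cox7a1, Ndufa1, Ndufa3, Ndufa7, Ndufaf3, Ndufb10, Ndufv1, Ndufv3 and Uqcr11. These are letter matches, not measured binding. Matches to NRF1 letters were found for Atp5c1, Atp5g2, Atp5o, Cox6a1, Ndufa5, Ndufa6, Ndufaf4 and Uqcrc1 among others, and matches to YY1 letters for Atp5j, Atp5j2, Ndufa9, Ndufaf8, Ndufc1, Ndufs4, Ndufs6 and Ndufs7. Members without an entry included Uqcrc2, Cox6a2, Cox4i1, Uqcrb, Atp5a1, Ndufaf6, Ndufb1-ps, Cox5b-ps, Ndufs1, Cox4i2, Ndufa2, Cox6c, Atp5mpl, Uqcrq and Ndufb9.

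Below, 4 promoters of complex IV genes are printed 5′ to 3′ along the gene, with matches to NRF1 or ETS letters in capitals. They set side by side 2 genes found in every class, Cox6a1 and Cox8a, and 2 paralogs of low level, Cox6b2 and Cox7a1. The 4 were picked by hand and do not stand for the members. Cox5a, with a mean of 190 CPM in microglia, its lowest class, had no match to NRF1, ETS or YY1 letters either. In Cox6a1 the capitals mark 2 NRF1 matches and 1 ETS match and in Cox8a 2 ETS matches, on either strand, while Cox6b2 and Cox7a1 held no match to any of NRF1, ETS and YY1.
Cox6a1, chr5:115348909-115349208, reverse strand: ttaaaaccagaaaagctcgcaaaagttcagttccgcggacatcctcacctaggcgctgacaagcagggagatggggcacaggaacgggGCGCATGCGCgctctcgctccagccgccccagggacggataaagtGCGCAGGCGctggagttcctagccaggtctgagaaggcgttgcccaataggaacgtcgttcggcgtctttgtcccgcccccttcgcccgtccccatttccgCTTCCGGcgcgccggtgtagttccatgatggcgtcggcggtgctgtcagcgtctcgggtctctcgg
Cox8a, chr19:7217567-7217866, reverse strand: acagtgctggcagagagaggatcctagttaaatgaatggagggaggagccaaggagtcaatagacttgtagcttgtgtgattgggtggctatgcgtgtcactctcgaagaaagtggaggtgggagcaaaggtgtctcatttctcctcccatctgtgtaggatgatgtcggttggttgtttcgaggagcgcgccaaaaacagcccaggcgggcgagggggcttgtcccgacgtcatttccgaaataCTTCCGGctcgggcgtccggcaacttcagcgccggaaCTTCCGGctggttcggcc
Cox6b2, chr7:4753045-4753344, reverse strand: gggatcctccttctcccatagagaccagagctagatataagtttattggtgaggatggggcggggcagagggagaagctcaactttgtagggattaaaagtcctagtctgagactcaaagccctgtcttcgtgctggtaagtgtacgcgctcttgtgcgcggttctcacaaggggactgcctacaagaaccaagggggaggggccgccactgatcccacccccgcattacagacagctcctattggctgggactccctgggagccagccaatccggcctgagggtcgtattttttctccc
Cox7a1, chr7:30183921-30184220, forward strand: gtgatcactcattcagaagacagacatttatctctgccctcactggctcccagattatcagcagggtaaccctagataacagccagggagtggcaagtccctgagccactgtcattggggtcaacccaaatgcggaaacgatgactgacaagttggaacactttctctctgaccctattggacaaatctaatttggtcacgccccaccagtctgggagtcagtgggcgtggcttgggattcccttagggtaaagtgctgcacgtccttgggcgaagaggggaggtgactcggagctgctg

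Over all deposited barcodes the most abundant members were Cox4i1, the ubiquitous form of subunit 4 of complex IV, with 159418 UMIs, Cox8a with 155473 and Atp5e, the epsilon subunit of ATP synthase, with 136916. Uqcrh, the hinge protein of complex III, led its complex with 95660 UMIs. Complex I was led by Ndufb1-ps with 89789 UMIs, a gene at chr12:101968090-101977068 on the reverse strand that GENCODE lists as a non-coding RNA from a bidirectional promoter. The kit counts 3′ ends, so these numbers were not divided by gene length. The 5 genes under the threshold were Cox7b2 and a second identifier of Atp5o with 0 UMIs, Cox8b, the muscle paralog of Cox8a, and Cox8c, known from testis, with 1 each, and Ndufa4l2, a paralog of Ndufa4 known to rise at low oxygen, with 49. Just above it lay Cox5b-ps with 423, Cox7a1 with 776 and Cox6b2 with 1014. Cox5b-ps is a near copy of Cox5b, and how reads were shared between them is uncertain.

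The share of RNA taken by the members was highest in T cells and lowest in B cells and microglia. Their summed level, in CPM of the class and mouse, ran from T cells, at 21651 ± 1404 (SD, n = 8 mice), followed by cDC1 (20848 ± 1910, n = 7), plasmacytoid dendritic cells (pDC, 20725 ± 1313, n = 6), NK cells (20467 ± 661, n = 8) and macrophages (20096 ± 273, n = 8). Next came cDC2 (18504 ± 1703, n = 8) and classical monocytes (18265 ± 1028, n = 8). At the low end were non-classical monocytes (15823 ± 766, n = 7), mature dendritic cells (15720 ± 918, n = 7), B cells (14051 ± 1488, n = 8) and microglia (14028 ± 1124, n = 8). Neighbours in this order overlapped between mice, except that every value of classical monocytes, 16864 to 19596, lay above every value of non-classical monocytes, 14912 to 16778. Macrophages were the most even class, at 19795 to 20562 over the 8 mice. Only mouse and class sums of at least 5 cells were used, and the gates for neutrophils (35 cells) and for mast cells or basophils (20 cells) held too few.

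The order changed with the total that levels were scaled to. Ribosomal protein genes took 318374 CPM in B cells, 302009 in NK cells and 287586 in T cells but 136984 in microglia. With mitochondrial and ribosomal protein genes left out of the total, T cells stayed highest with 31867 CPM, NK cells moved from the fourth to the second place with 30792, B cells, at 22119, passed non-classical monocytes (19587) and mature dendritic cells (18832), and microglia were lowest with 17022.

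The subunits encoded by mitochondrial DNA followed another order than the nuclear members. Their summed level was highest in pDC, at 45852 to 57147 CPM, and in B cells, at 43633 to 52903 CPM, and these ranges overlapped. Microglia had 31920.1 to 46231 CPM, T cells 30816 to 37005 CPM and NK cells 28999 to 33953 CPM. B cells and microglia, the lowest classes for the nuclear members, were thus among the 3 highest for the mitochondrial transcripts. Macrophages differed most between mice here, with WT values of 33711, 27543, 25822 and 27524 CPM and CaMKK2 KO values of 30179.8, 19243, 34309 and 16813 CPM. The lowest 2 of these, mice CaMKK2 KO 2 and CaMKK2 KO 4, had 20087 and 20183 CPM of the nuclear members, near the other mice.

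**Figure D1:**
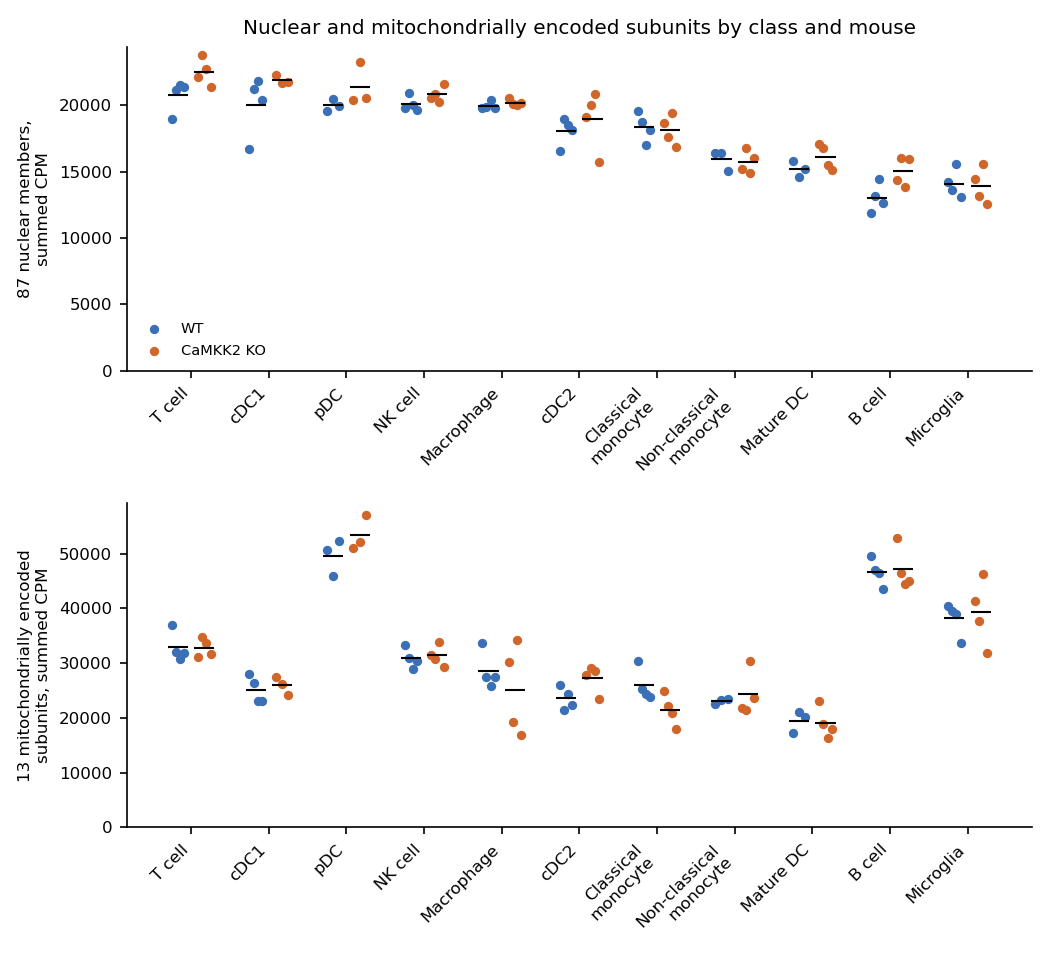
Summed level of the 87 nuclear members (top) and of the 13 subunits encoded by mitochondrial DNA (bottom), in CPM, by cell class. Each point is 1 mouse (blue WT, orange CaMKK2 KO; sums of at least 5 cells), and each bar is the mean of a genotype. The nuclear members ran from 21651 CPM in T cells to 14028 in microglia, while the mitochondrial transcripts were highest in pDC and B cells.

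ATP synthase and complexes I, III and IV were each highest in T cells or pDC and lowest in B cells or microglia. ATP synthase ran from 7097 ± 427 CPM in T cells to 4269 ± 365 in microglia, complex IV from 6115 ± 219 in pDC and 6114 ± 443 in T cells to 3853 ± 408 in B cells, and complex III from 2122 ± 175 in pDC to 1356 ± 91.9 in microglia. Complex I ran from 6121 ± 415 in T cells to 4132 ± 460.1 in B cells, where the ranges over mice, 5517 to 6849 and 3501 to 4697, did not overlap. The assembly factors of complex I were lower and more unequal, at 227 ± 32.3 CPM in pDC, 214 ± 17.8 in T cells, 122 ± 21.6 in classical monocytes and 106 ± 22.3 in mature dendritic cells. For single members the mean of the highest class was divided by that of the lowest, or by the CPM of 3 counts where that was larger. This ratio was 2.08 in the median member and under 3 in 76 of 87. It exceeded 10 in Cox6a2 and, just, in Ndufaf4, an assembly factor of complex I, which had 38.7 CPM in NK cells and 3.80 in mature dendritic cells. The limit of 3 counts set the ratio of Cox6a2, Cox6b2, Cox4i2, Ndufaf5, Cox7a1 and Cox5b-ps, which understates the ratio of their means. Cox6b2 had 12.7 CPM in classical monocytes and 0.378 in B cells, and Cox7a1 6.52 in macrophages and 0 in non-classical monocytes. Members were most often highest in T cells (21), cDC1 (18), pDC (17) and macrophages (14), and most often lowest in B cells (29), mature dendritic cells (21) and microglia (20).

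Cox6a2, the muscle form of subunit 6a (chr7:128205435-128206387, reverse strand), stood out by class. In pDC, a class of 74 cells that are known as producers of type I interferon, it reached 1025, 1254 and 815 CPM in mice WT 2 to WT 4 and 971, 1056 and 941 CPM in mice CaMKK2 KO 1 to CaMKK2 KO 3. Mouse WT 1 had no pDC, and the 2 pDC of mouse CaMKK2 KO 4 gave 1768 CPM. It was found in 63 of the 74 pDC, 85.1%, and made 82.1% of the UMIs of the pair Cox6a1 and Cox6a2 in that class. Cox6a1 was at 165 to 242 CPM in the same pDC, against 207 to 242 CPM in macrophages.

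In microglia Cox6a2 was present at a lower level, 31.5, 46.7, 14.8 and 32.0 CPM in the WT mice and 37.6, 20.3, 42.8 and 22.1 CPM in the CaMKK2 KO mice. It was seen in 70 of 299 microglia, 23.4%, and made 14.9% of the Cox6a1 and Cox6a2 pair. Every one of these values exceeded those of macrophages, which were 2.97, 7.26, 4.54 and 3.90 CPM in WT and 4.06, 0.931, 4.96 and 1.61 CPM in CaMKK2 KO mice, in 5.45% of cells at a median of 16587.5 UMIs. In cDC1, cells of a higher median depth (22347.5 UMIs), Cox6a2 was in 0 of 108 cells, which allows up to 1.26 CPM by a limit of 3 counts. Of the 8 marker genes of pDC, Siglech, a lectin known in both classes, and Tcf4 stood at 717 and 254 CPM in microglia and 2647 and 1819 CPM in pDC. The other 6 were at 0.256 to 7.67 CPM in microglia and 13.5 to 1665 CPM in pDC: Ccr9 had 1.02 and 1665 CPM, Klk1 0.512 and 1395, Cd300c 1.02 and 410.1, Cobll1 0.256 and 13.5, and Atp1b1 0.512 and 567, while Pacsin1 had the 7.67 CPM in microglia. The part of pDC RNA in the microglial level of Cox6a2 was not tested.

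Cox4i2 (chr2:152754173-152765037, forward strand) was a macrophage transcript in these samples. It had 13, 9.75, 10.7 and 10.6 CPM in macrophages of the WT mice and 14.7, 35.6, 15.8 and 1.61 CPM in those of the CaMKK2 KO mice, the last 4 spanning the WT values. It was seen in 313 of 2736 macrophages, 11.4%, with up to 21 UMIs in a cell, in 2.51% of classical monocytes and in 0.153% of NK and 0.127% of T cells. Ndufa4l2 was rarer still, with 35 UMIs in 10 macrophages.

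Cox6b2 and Cox7a1 were low throughout. Cox6b2 was highest in classical monocytes, at 27.4, 14.7, 12.2 and 11.2 CPM in WT and 6.62, 8.07, 13.3 and 7.95 CPM in CaMKK2 KO mice, and made 2.13% of the Cox6b1 and Cox6b2 pair there. Cox7a1 was highest in macrophages, with a median of 6.31 CPM over the 8 mice, and made 1.83% of the Cox7a1 and Cox7a2 pair. The common forms were much more even: Cox4i1 lay between a mean of 627 CPM in B cells and 952 in classical monocytes. Cox5b and Cox6b1 were lowest in B cells, with medians of 241 and 271 CPM over mice, and Cox8a in non-classical monocytes, with 528 CPM.

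**Figure D2:**
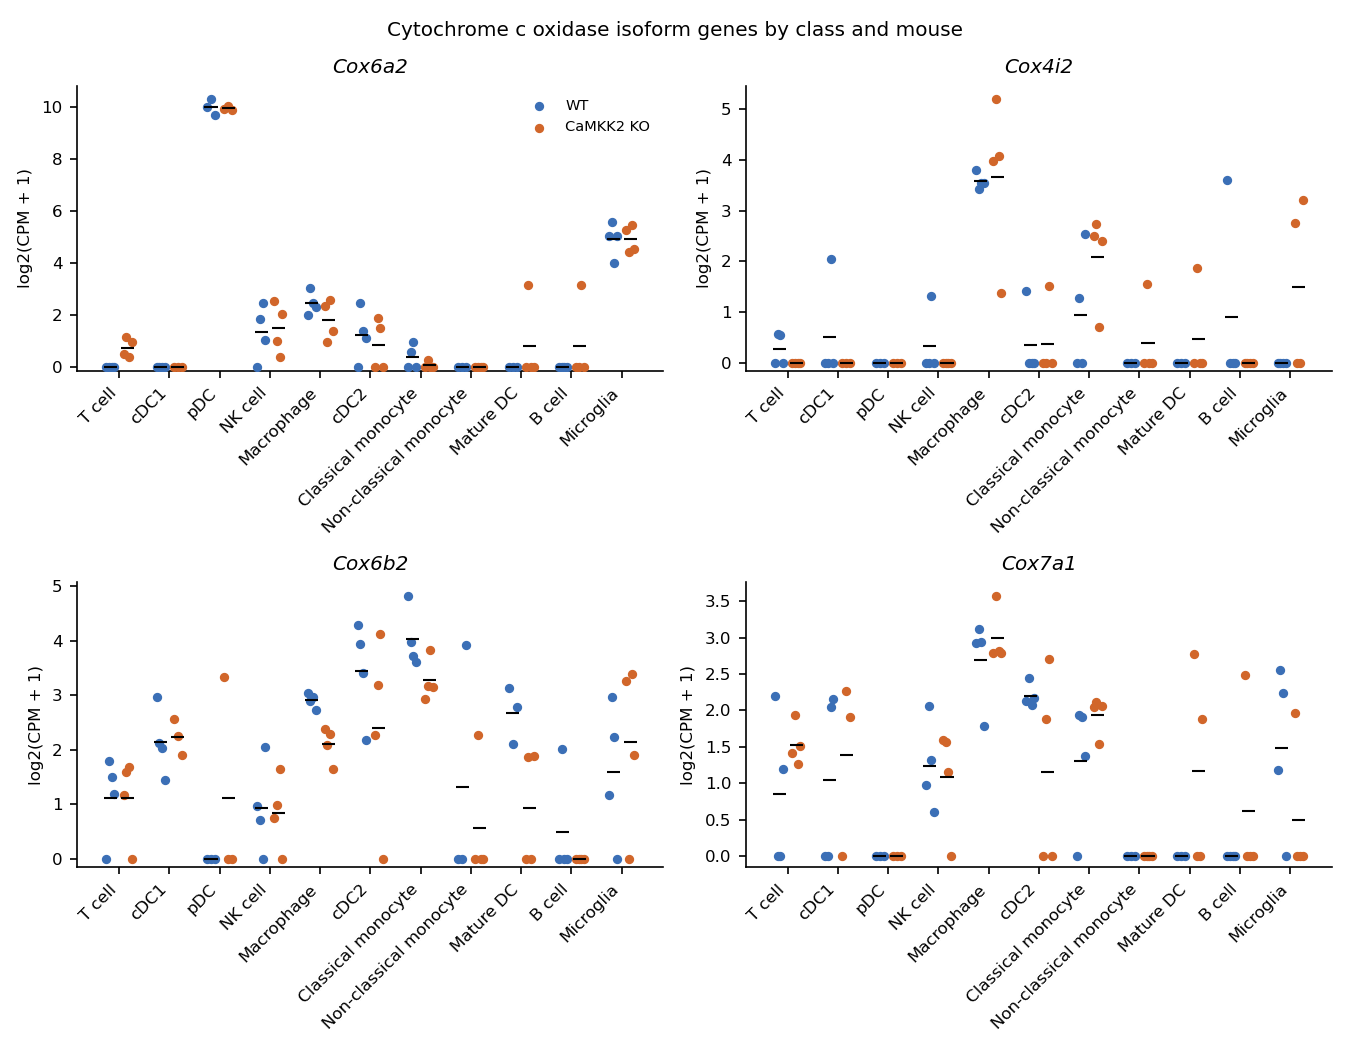
Levels of the complex IV paralogs Cox6a2, Cox4i2, Cox6b2 and Cox7a1 by class, as log2(CPM + 1), 1 point per mouse with at least 5 cells (blue WT, orange CaMKK2 KO), bars at genotype means. Cox6a2 stands apart in pDC (815 to 1254 CPM) and is next highest in microglia, and Cox4i2 and Cox7a1 are highest in macrophages.

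Among the paralogs that cells use side by side, proportions shifted mildly. Of the 3 genes for the c ring of ATP synthase, Atp5g2 led in T cells with a median of 589 CPM over mice, against 251 for Atp5g1 and 235 for Atp5g3. In classical monocytes the medians were 279, 216 and 149 CPM, and in microglia 433, 178 and 129 CPM. Cox7a2l, a supercomplex factor related to Cox7a2, was above Cox7a2 in B cells (486 and 207 CPM) and in cDC2 (578 and 234 CPM), and the order was the other way around in NK cells (375 and 397 CPM) and macrophages (328 and 352 CPM), where the ranges over mice overlapped. Ndufa1, an X-linked accessory subunit of complex I, had medians of 105 CPM in B cells to 237 CPM in T cells.

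Classes were then compared by the quasi-likelihood test of edgeR with the mouse as a block, on library sizes equal to the total UMIs. Each fit between classes held several classes at once, so its error also drew on classes outside the pair named. Classical monocytes, which give rise to macrophages in tissue, had 6 of 87 members higher and 50 lower than macrophages, where 18.1% of all genes tested were higher and 43.1% lower. The median log2 ratio was -0.26 over the members and -0.24 over all genes, and with TMM scaling the counts were 17 higher and 30 lower at medians of -0.07 and -0.03. The 5 members furthest up were Cox6b2 (log2 ratio 1.25 ± 0.21 SE, adjusted p = 4.01e-06), Uqcrh (0.52 ± 0.08), Ndufb1-ps (0.32 ± 0.06), Uqcrfs1, the Rieske protein of complex III (0.30 ± 0.07), and Ndufa6 (0.20 ± 0.07, adjusted p = 0.0154). Uqcrh stood at 528 to 662 CPM in classical monocytes and at 374 to 467 CPM in macrophages, without overlap. The 5 furthest down were Cox6a2 (-3.72 ± 0.54, from 5 UMIs in classical monocytes), Cox4i2 (-2.16 ± 0.34), Ndufaf4 (-1.71 ± 0.19, adjusted p = 1.75e-09), Cox7a1 (-1.29 ± 0.27) and Ndufa5, an accessory subunit of complex I (-1.11 ± 0.09, adjusted p = 3.71e-13). Ndufa5 was at 37.2 to 62.9 CPM in classical monocytes and 102 to 121 CPM in macrophages. Other mitochondrial genes went the same way, with 64 of 77 genes of the mitochondrial ribosome and 19 of 29 assembly and copper factors lower, against 7 of 13 genes of the TCA cycle.

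In microglia the members lay lower than in macrophages while most other genes did not. There, 65 of 87 members were lower and 2 higher, while 18.9% of all genes were lower and 31.9% higher. The median log2 ratio was -0.49 for the members and 0.19 for all genes, and -0.73 and -0.04 with TMM scaling, which called 77 lower. Cox5a, a nuclear subunit near the core of complex IV, was at 163, 201, 267 and 121 CPM in microglia of the WT mice and 194, 172, 206 and 193 CPM in those of the CaMKK2 KO mice. In macrophages it was at 379 to 429.7 CPM, above every microglial value (-1.10 ± 0.10, adjusted p = 1.91e-15). The others furthest down were Cox4i2 (-3.16 ± 0.57, from 5 UMIs in microglia), Cox7a1 (-1.65 ± 0.46), Ndufb1-ps (-1.03 ± 0.09) and Atp5g1 (-0.90 ± 0.12), lower in 8 of 8 mice except Cox4i2 in 7. The 2 members that were higher were Cox6a2 (3.08 ± 0.25, adjusted p = 1.12e-17) and Ndufaf7, a methyltransferase of complex I assembly (1.55 ± 0.20, adjusted p = 2.84e-10). Ndufaf7 had 42.8, 48.6, 18.5 and 35.6 CPM in WT and 40.4, 5.07, 30.1 and 52.4 CPM in CaMKK2 KO microglia, above the 6.98 to 16.3 CPM of macrophages in all but mouse CaMKK2 KO 2. Of the subunits encoded by mitochondrial DNA, 10 of 13 were higher in microglia and none lower, at a median of 0.62, and 13 of 14 glycolysis genes and 69 of 84 genes of the cytosolic ribosome were lower. Microglia numbered 13 to 76 cells per mouse, and this fit was chosen after the data had been seen.

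Against the mean of macrophages and classical monocytes, the mean of T and NK cells had 42 of 87 members higher and 10 lower, and the direction of the members as a group depended on the scale. Of all genes 51.7% were higher and 31.1% lower at a median of 0.26, against 0.12 for the members. TMM scaling gave 20 members higher and 39 lower, DESeq2 gave 27 and 31, and a total without mitochondrial and ribosomal protein genes gave 74 and 6, with medians of -0.11, -0.03 and 0.37. In the same comparison 80 of 84 genes of the cytosolic ribosome and 12 of 13 subunits encoded by mitochondrial DNA were higher in lymphocytes. The assembly factors led the members, with Ndufaf4 (1.25 ± 0.13), Ndufaf2 (1.18 ± 0.10), Ndufaf7 (0.89 ± 0.12) and Ndufaf1 (0.69 ± 0.13), together with Ndufb11, an X-linked subunit of complex I (0.74 ± 0.05), each higher in 8 of 8 mice. The furthest down were Cox4i2 (-5.23 ± 0.52, from 2 UMIs in T and 2 in NK cells), Cox6b2 (-2.32 ± 0.22), Cox7a1 (-1.50 ± 0.25), Ndufb1-ps (-0.67 ± 0.04, adjusted p = 2.15e-17) and Ndufc2 (-0.54 ± 0.07). Ndufb1-ps lay at 267 to 352 CPM in NK cells and 531 to 708 CPM in classical monocytes, and it stayed lower under each of 16 alternatives, at -0.89 to -0.41.

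Between T and NK cells fewer members were called. T cells had 16 of 87 higher and 2 lower than NK cells, where 18.2% and 12.4% of all genes were called, at medians of 0.08 and 0.05. Ndufaf3, an assembly factor (0.43 ± 0.11), Ndufb1-ps (0.37 ± 0.06), Cox7a2l (0.34 ± 0.09), Ndufb8 (0.34 ± 0.08) and Ndufa6 (0.33 ± 0.08) were higher in T cells of 8 of 8 mice. Cox7a2 was lower (-0.30 ± 0.07, in 7 of 8 mice), as was Cox6a2 (-2.22 ± 0.68, from 6 UMIs in T and 24 in NK cells), a call lost without mouse WT 3 (-1.77) or mouse CaMKK2 KO 1 (-1.93). Without cycling cells 9 members were higher and 5 lower, and without mouse CaMKK2 KO 1 or mouse WT 3 the lower ones numbered 1.

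For pDC against cDC2 the list moved with the scale, and Cox6a2 did not. The pDC came from the 6 mice with at least 5 of them, and the cDC2 from 8 mice. Here 14 of 87 members were higher and 7 lower, near the 18.3% and 12.1% of all genes. TMM scaling gave 1 higher and 22 lower and DESeq2 7 and 16, with member medians of -0.21 and -0.03 in place of 0.12. Leaving out mouse CaMKK2 KO 3, WT 2 or CaMKK2 KO 1 left 1, 3 and 4 lower. Cox6a2 was higher by 8.96 ± 0.31 (adjusted p = 1.78e-37), and by 8.58 to 9.53 over 16 alternatives, against at most 4.44 CPM in cDC2. After it came Ndufb11 (0.66 ± 0.13), Ndufs3 (0.60 ± 0.17), Ndufa4 (0.57 ± 0.18) and Uqcr11 (0.52 ± 0.13), and the lowest were Ndufa8 (-0.65 ± 0.18), Ndufc2 (-0.53 ± 0.18), Cox7a2l (-0.49 ± 0.15), Ndufb8 (-0.48 ± 0.16) and Cox6b2, of which pDC held 1 UMI. Ndufb11 was at 286, 403 and 259 CPM in WT and 348, 264 and 222 CPM in CaMKK2 KO pDC, above every cDC2 value, which reached 202 CPM. In the same cells 12 of 13 subunits encoded by mitochondrial DNA were higher in pDC, at a median of 1.05, and 11 of 14 glycolysis genes were lower.

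**Figure D3:**
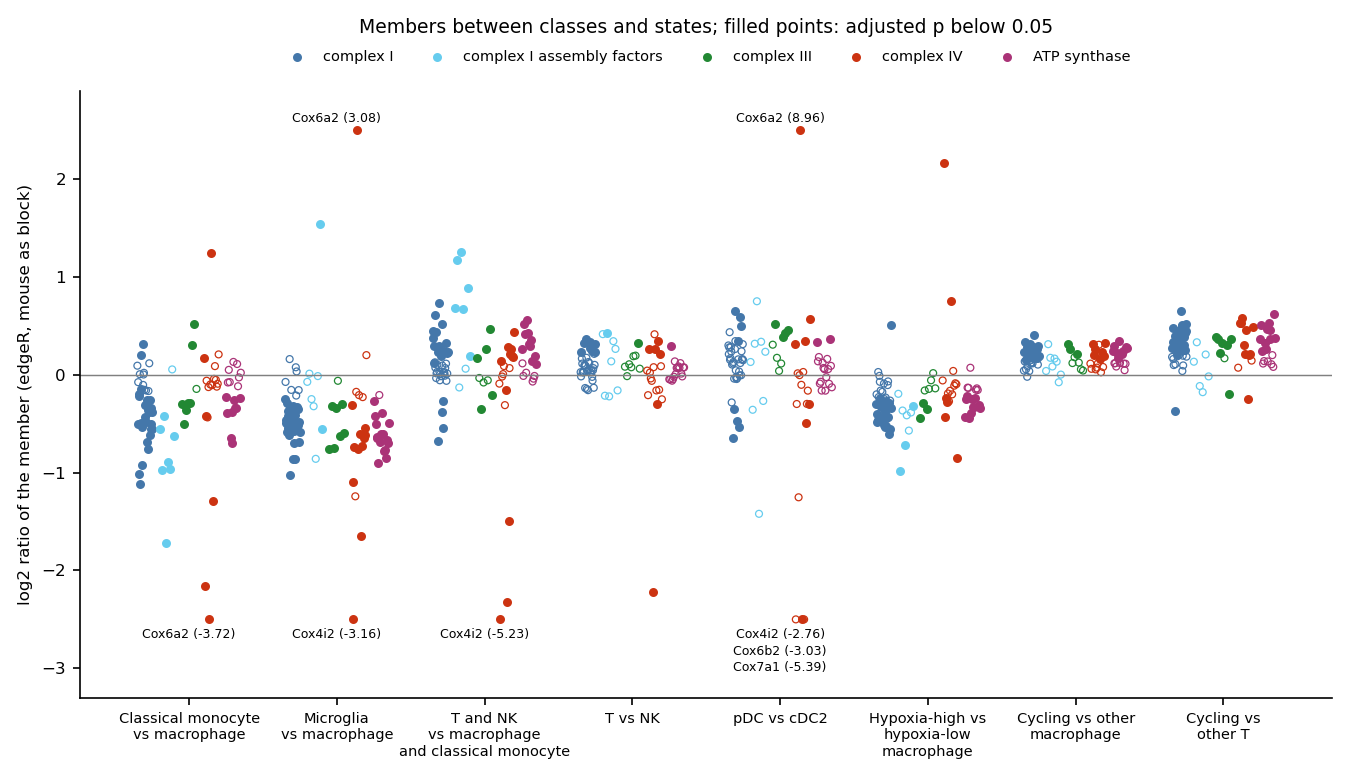
Log2 ratio of each member in 8 comparisons between classes or states (edgeR, mouse as block), coloured by complex, filled where the adjusted p was below 0.05. Ratios beyond 2.5 in size are drawn at 2.5 with their value. The members lie lower in microglia than in macrophages (65 of 87), and Cox6a2 reaches 8.96 in pDC over cDC2.

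Macrophages were also split by their content of a hypoxia response list (Egln3, Ndrg1, Bnip3, Vegfa, Ankrd37, Adm, Ero1l, Car9, Mxi1 and Pdk1), which holds no member. The 10% of each mouse's macrophages with the largest share of UMIs in these genes were called hypoxia-high, 273 cells, and the other 2463 hypoxia-low. The split was added after the data had been seen and rests on the RNA of the same cells. Of 85 members tested, 3 were higher and 43 lower in hypoxia-high macrophages, where 8.01% of all genes were higher and 19.8% lower, with medians of -0.27 and -0.19. TMM scaling gave 3 and 19 members at medians of -0.12 and -0.04. The summed level was 15719.9 to 18237 CPM in hypoxia-high and 19978 to 20810.0 CPM in hypoxia-low macrophages, without overlap.

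Cox4i2 went against the list. It was at 37.4, 39.5, 32.8 and 43.5 CPM in hypoxia-high macrophages of the WT mice and at 56.8, 81.5, 66.6 and 0 CPM in those of the CaMKK2 KO mice. In hypoxia-low macrophages it was at 10.4, 6.73, 8.17 and 7.37 CPM in WT and 11, 30.8, 10.2 and 1.74 CPM in CaMKK2 KO mice, below the paired value in every mouse but CaMKK2 KO 4, whose hypoxia-high set held 13 cells. The log2 ratio was 2.16 ± 0.18 (adjusted p = 1.89e-08) and 2.06 to 2.33 over 14 alternatives, and the share of Cox4i2 in the pair with Cox4i1 was 5.30% against 1.22%. Cox4i1 itself stood at 611 to 933 and 720.0 to 976 CPM, which overlapped. Cox4i2 is also known from pericytes, and of 5 pericyte genes looked at after the data had been seen (Rgs5, Higd1b, Kcnj8, Abcc9 and Vtn) hypoxia-high macrophages held 0 UMIs in a total of 4388714 and hypoxia-low macrophages 5 in 43064121. Markers of other non-immune cells summed to 63.6 and 56.6 CPM in the 2 sets, and their part in the values of Cox4i2 was not tested.

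Ndufv3, an accessory subunit of the NADH-binding part of complex I, was higher too, at 284, 293, 226 and 219 CPM in WT and 215, 274, 260.3 and 261 CPM in CaMKK2 KO hypoxia-high macrophages. The paired hypoxia-low values were 201, 176, 179 and 142 CPM and 175, 217, 170.2 and 155 CPM, lower in each of the 8 mice (0.52 ± 0.08, adjusted p = 7.18e-05). The third was Cox7a1 (0.76 ± 0.28, adjusted p = 0.0452), which was not called without any of 7 mice taken singly, at adjusted p-values up to 0.117. Ndufa4 fell by 0.85 on the log2 scale (SE 0.09, adjusted p = 5.07e-07), from 181 to 254 CPM in hypoxia-low to 96.6 to 137 CPM in hypoxia-high macrophages, without overlap between the 2 sets. The other members furthest down were Ndufaf2 (-0.98 ± 0.20), Ndufaf4 (-0.72 ± 0.19), and the iron-sulfur subunits Ndufs7 (-0.60 ± 0.10) and Ndufs8 (-0.55 ± 0.09) of complex I. Of the glycolysis genes 14 of 14 were higher, at a median of 1.32, while 3 of 4 subunits of complex II, 28 of 77 genes of the mitochondrial ribosome and 7 of 13 subunits encoded by mitochondrial DNA were lower and none higher.

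**Figure D4:**
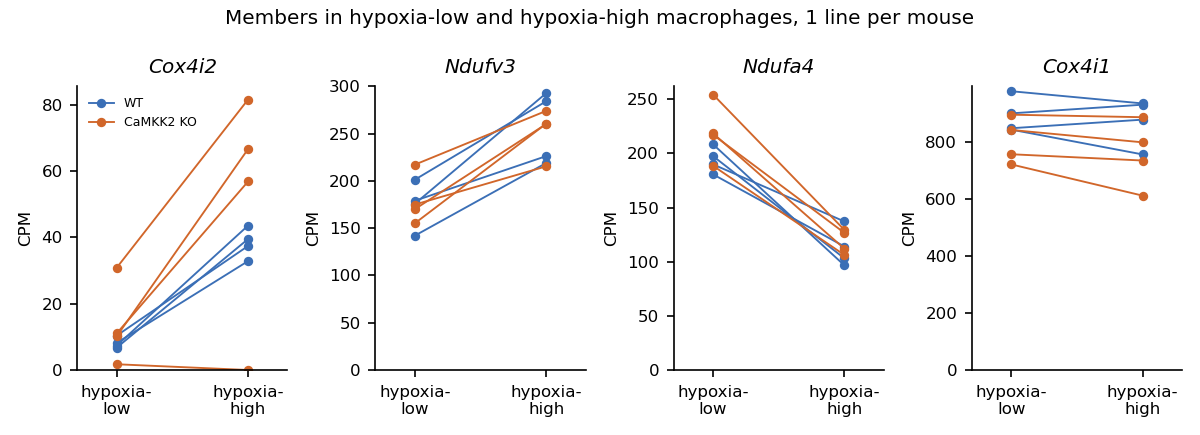
CPM of Cox4i2, Ndufv3, Ndufa4 and Cox4i1 in hypoxia-low and hypoxia-high macrophages, with 1 line per mouse (blue WT, orange CaMKK2 KO). Cox4i2 was higher in hypoxia-high macrophages in 7 of 8 mice, Ndufv3 was higher and Ndufa4 lower in 8 of 8, and Cox4i1 overlapped.

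Cycling cells, those with UMIs in at least 2 of a list of proliferation genes, had more of the members. Cycling macrophages (537 cells) had 43 of 85 members higher and none lower than the other 2199, where 12.6% of all genes were higher and 7.15% lower, at medians of 0.18 and 0.04. Ndufc1 led with 0.41 ± 0.06 (adjusted p = 1.02e-05), at 208, 213, 227 and 181 CPM in cycling macrophages of the WT and 259, 253, 199.6 and 249 CPM in those of the CaMKK2 KO mice. In the other macrophages it was at 144 to 199 CPM, lower than the paired value in every mouse. Atp5g3 (0.35 ± 0.06), Ndufa12 (0.33 ± 0.06), Ndufa4 (0.32 ± 0.06) and Ndufb11 (0.32 ± 0.06) followed. With TMM scaling 28 members were higher and none lower, and 12 of 13 subunits encoded by mitochondrial DNA were higher as well.

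Cycling T cells (338 cells) had 52 of 80 members higher and 3 lower than the other 1239, where 16.2% and 15.7% of all genes were called, at medians of 0.30 and -0.03. Furthest up were Ndufb8, an accessory subunit of complex I (0.65 ± 0.09, adjusted p = 2.69e-06), Atp5o, the stalk protein OSCP of ATP synthase (0.62 ± 0.08), Cox6a1 (0.58 ± 0.08), Cox5a (0.54 ± 0.08) and Cox5b (0.53 ± 0.07). The 3 lower ones were Ndufa6 (-0.37 ± 0.08), Cox7a2l (-0.24 ± 0.07) and Uqcrh (-0.19 ± 0.07). Ndufb8 lay at 185 to 275 CPM in cycling and 103 to 177 CPM in other T cells, without overlap in the 7 mice with at least 5 cycling T cells, and without mouse WT 1, which had 1 such cell, 54 members were higher and 3 lower. Unlike in macrophages, the subunits encoded by mitochondrial DNA did not go along, with 0 higher and 1 lower of 13. Cycling cells were deeper: the median UMIs per cell of a mouse were 12438.5 to 19907 in cycling and 5967 to 8792.5 in other T cells, and 15409 to 23011 and 13511 to 16944 in macrophages. The part of depth in these results was not tested.

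WT and CaMKK2 KO mice were compared within each class, 4 mice against 4. Few members were called: 0 of 85 members were called in macrophages, 0 of 78 in classical monocytes, 1 of 79 in NK cells, 0 of 80 in T cells, 0 of 72 in microglia and 1 of 43 in B cells. Of all genes tested 2.18%, 1.52%, 2.49%, 1.81%, 1.79% and 5.07% were called in these classes. Members that missed the number of 200 UMIs in a class were not tested there. At an unadjusted p under 0.05 the members were 6, 4, 9, 21, 6 and 6, and the share of all genes was 20.9%, 15.2%, 18.2%, 17.4%, 15.3% and 24.9%. The 21 of 80 members in T cells stood above that share, and the members of every other class below it. In T cells 18 were higher and 3 lower, where 12.8% and 4.64% of all genes were. The T cells of the genotypes were mixed differently. Those with UMIs of Cd4 but not of Cd8a, Cd8b1 or Foxp3 numbered 0, 12, 15 and 15 in the WT mice. In the CaMKK2 KO mice they numbered 38, 97, 52 and 45, and the part of this in the T cell results was not tested. DESeq2 called 1 in macrophages (Cox8a, 0.26), 1 in classical monocytes (Ndufaf3, 0.79), 1 in T cells (Cox7a2l, -0.35) and 1 in B cells (Atp5g1, 1.12). A missed threshold does not show equal levels: in simulated data of the same depth edgeR recovered 71% to 89% of genes changed 2-fold.

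In NK cells the member called at the main settings was Ndufv3. It was at 144, 136, 141 and 139.9 CPM in WT and 184, 183, 181 and 178 CPM in CaMKK2 KO mice, with no overlap (0.38 ± 0.09, adjusted p = 0.0447), where 1.72% of all genes were higher. The call was narrow, held in 2 of 16 alternatives at adjusted p-values of 0.0223 to 0.219, and was lost without any mouse other than CaMKK2 KO 3, at log2 ratios of 0.36 to 0.39. In B cells it was Atp5g1, 1 of the genes of the c ring, with 88.6, 99.7, 111 and 84.4 CPM in WT and 199, 225, 151 and 276 CPM in CaMKK2 KO B cells (1.15 ± 0.23, adjusted p = 0.0243), where 3.23% of all genes were higher. All CaMKK2 KO values exceeded all WT values, and 11 of 16 alternatives called it, but it was lost without mouse WT 1 (1.11), WT 2 (1.15), WT 4 (1.11), CaMKK2 KO 2 (1.13) or CaMKK2 KO 4 (0.99). B cells numbered 14 to 87 per mouse and only 43 members could be tested.

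The 4 mice of each genotype did not overlap, with CaMKK2 KO higher, in 4 of 85 members in macrophages, 3 of 78 in classical monocytes, 8 of 79 in NK cells and 16 of 80 in T cells, where 4.01%, 4.68%, 7.77% and 8.87% of all genes did so. With CaMKK2 KO lower the members were 4, 0, 2 and 2, and the shares of all genes 9.19%, 5.27%, 3.35% and 3.08%. The 16 in T cells were Atp5e, Atp5j, Atp5j2, Atp5k, Atp5o, Cox5a, Cox6a1, Ndufa1, Ndufa2, Ndufaf3, Ndufb3, Ndufb7, Ndufs4, Ndufs6, Uqcr10 and Uqcrb, and the 2 lower ones Cox7a2l and Ndufa6. Of these, Atp5o, Cox5a and Cox6a1 were also among the members furthest up, and Cox7a2l and Ndufa6 among those lower, in cycling T cells. The parts of cycling and of the mix of T cells in these overlaps were not tested. All overlaps were read on total UMIs, and no other total was tried for them.

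Ndufaf3 did not overlap in classical monocytes, NK cells and T cells, and edgeR called it in none of them. It was at 22.9, 21.3, 17.4 and 25.6 CPM in WT and 34.7, 40.3, 27.9 and 39.0 CPM in CaMKK2 KO classical monocytes (0.76 ± 0.19, adjusted p = 0.0767), where DESeq2 called it (0.79), as did edgeR without mouse CaMKK2 KO 3 (0.85). In NK cells it was at 12.6, 22.3, 25.3 and 17.9 CPM in WT and 28.9, 34.0, 28.9 and 33.8 CPM in CaMKK2 KO cells (0.65 ± 0.20, adjusted p = 0.103), and in T cells at 18.0 to 31.5 and 33.6 to 52.7 CPM. In macrophages the values, 28.3 to 36.7 and 32.5 to 48.4 CPM, overlapped. The classes come from the same 8 mice and 2 channels, so they do not repeat the comparison. Cox6b2 was lower in CaMKK2 KO macrophages, at 4.22, 3.26, 3.91 and 2.15 CPM against 7.27, 6.50, 6.82 and 5.61 CPM in WT, again with no overlap and short of the threshold (-0.86 ± 0.21, adjusted p = 0.0674). This gene and Ndufaf3 were picked after their values had been seen.

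As a group the members lay at a median log2 ratio, CaMKK2 KO over WT, of 0.03 in macrophages, -0.02 in classical monocytes, 0.06 in NK cells, 0.12 in T cells, -0.05 in microglia and 0.21 in B cells. Over all genes the medians were -0.08, -0.02, 0.08, 0.07, -0.10 and 0.02. In T cells 69 of 80 members and in B cells 33 of 43 lay above 0, against 62.6% and 52.8% of all genes. The T cells of the CaMKK2 KO mice held more CD4 T cells, and the part of this was not tested. In T cells the members' median was 0.04 with TMM scaling and -0.01 with mitochondrial and ribosomal protein genes left out of the total. In the same cells 17 of 82 genes of the cytosolic ribosome were lower in CaMKK2 KO mice, at a median of -0.31, and the part of this in the members' values was not tested. Of the subunits encoded by mitochondrial DNA 0 of 13 were called in macrophages, classical monocytes, NK cells and T cells. No gene of the TCA cycle, complex II or the mitochondrial carriers was called in any class, and of the mitochondrial ribosome 1 of 77 in macrophages and 1 of 71 in NK cells were lower, Mrps12 in both. Of the assembly and copper factors 1 was higher in macrophages and in T cells, Cox18, which inserts a subunit of complex IV into the membrane (0.93 ± 0.13, adjusted p = 0.00543, and 1.01 ± 0.19, adjusted p = 0.0206). Of glycolysis Pgk1 was higher in B cells (1.06 ± 0.28), and of the hypoxia response Car9 was lower in macrophages (-3.73 ± 0.42) and Vegfa in NK cells (-0.65 ± 0.13). These single genes do not stand for their lists. The median log2 ratio of the hypoxia response list was 0.28 in macrophages, 0.33 in classical monocytes, 0.08 in NK cells and 0.29 in T cells. For glycolysis it was 0.45, 0.35, 0.09 and 0.43 in these classes, 0.13 in microglia and 0.50 in B cells.

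CD8 T cells, 17 of them in mouse WT 1, were looked at by overlap alone, without a test. The minimum of 10 cells used for microglia and B cells would have admitted them, but they were not fitted. The summed members were at 19554, 22116, 22609 and 22622 CPM in WT and 22899, 25346, 23711 and 24618 CPM in CaMKK2 KO mice. The lowest CaMKK2 KO value lay just above the highest WT value. These values and overlaps are on total UMIs, and no other total was tried for CD8 T cells. In all T cells the members' median log2 ratio of 0.12 became -0.01 with mitochondrial and ribosomal protein genes left out of the total. Of 79 members with at least 200 UMIs, 12 were higher in all CaMKK2 KO mice than in all WT mice and 2 lower, where 8.05% and 3.41% of all genes were. The 12 included Cox5a, at 252, 443, 443 and 453 CPM in WT and 508, 639.9, 545 and 566 CPM in CaMKK2 KO mice, Cox6a1, Atp5k, Ndufb7 and Ndufaf3, and the 2 were Ndufa6 and Cox7a2l. Of the 12, Ndufb2, Ndufv2, Ndufs6, Ndufv3, Ndufa1 and Ndufb7 belong to complex I and Atp5j2 and Atp5e, like Atp5k, to ATP synthase. Cycling cells made 1 of 17, 23 of 114, 40 of 149 and 28 of 129 CD8 T cells in the WT mice. In the CaMKK2 KO mice they made 29 of 130, 21 of 50, 38 of 139 and 15 of 42. Cox5a and Cox6a1 were also higher, and Ndufa6 and Cox7a2l lower, in cycling than in other T cells. The part of cycling in the CD8 T cell values was not tested.

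**Figure D5:**
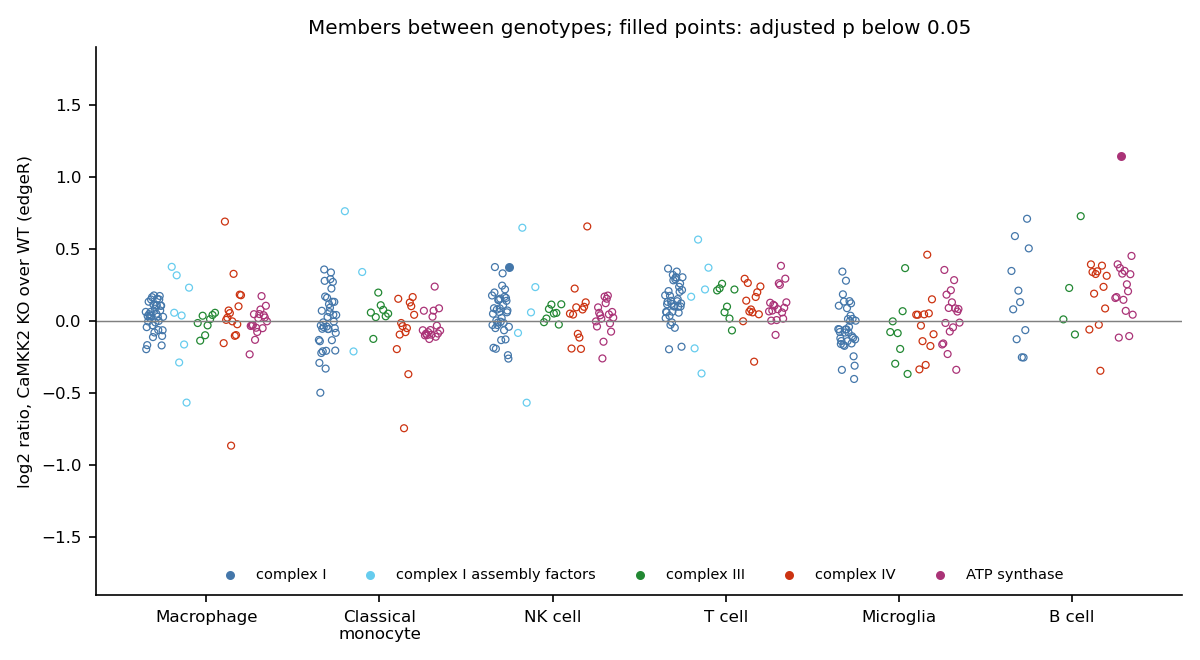
Log2 ratio of each member between CaMKK2 KO and WT mice (edgeR) in 6 classes, coloured by complex, filled where the adjusted p was below 0.05. The filled points are Ndufv3 in NK cells (0.38) and Atp5g1 in B cells (1.15). Of the members 69 of 80 lie above 0 in T cells and 33 of 43 in B cells.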

How the data were processed

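UMI counts were deposited by the authors as 1 matrix of counts per genotype, with 4 hashtag antibodies counted beside the genes. Per the submitters' processing notes they were made with bcl2fastq 2.20, Cell Ranger 4.0.0, STAR 2.7.5c and Seurat on mm10, and hold whole numbers that were not normalized. Here, mice were assigned with HTODemux (Seurat 5.3.0, quantile 0.99), singlets with under 200 genes or beyond 3 median absolute deviations (scuttle 1.12.0) were left out (744 WT and 922 CaMKK2 KO outliers), and the top Scrublet scores (scanpy 1.11.5) were removed in the number expected for doublets of 1 mouse (222 and 169). Cells entered a class when their marker score reached 0.25 and led the next class by 0.1, and 1522 cells lay within 0.05 of that lead. The scoring rule was set after the data had been seen.

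For each class, the UMIs of a mouse were added up and the sums tested in edgeR 4.0.16 (quasi-likelihood, R 4.3.3) over genes with at least 200 UMIs, library size equal to total UMIs, Benjamini-Hochberg threshold 0.05, with DESeq2 1.42.0, TMM scaling, other filters and gates, and single mice left out as alternatives. Tables and plots were made with Python 3.11.15, pandas 2.3.3, numpy 2.4.6 and matplotlib 3.10.9, and gene positions came from GENCODE M21. On simulated counts for 10730 genes in the comparison of classical monocytes with macrophages, edgeR recovered 91% of genes changed 2-fold and 48% of those changed 1.41-fold. A planned contrast of T, NK and B cells was run without B cells and microglia, which had under 20 cells in some mice. These were fitted at a minimum of 10 cells for the genotypes, and sums of at least 5 cells were used for microglia against macrophages and pDC against cDC2. These fits, the hypoxia and cycling splits and the overlaps between genotypes were added after the data had been seen. The genes named were the most abundant member of each complex, members with restricted paralogs, members called between genotypes, the 5 furthest up and down in each class comparison, and members next to the 200 UMI threshold, beside those said to be picked by their values. The members and gene lists were chosen with earlier results of these data known. Ribosomal protein genes were taken by symbol, without S6 kinases, binding proteins and pseudogenes. MAST, the test of the study's methods, was not used here. The hashtag numbers name a mouse and pair nothing. P-values between genotypes cover the spread between mice. Those of class comparisons cover the scatter left with the mouse as a block, over all classes of the fit and not the named pair alone. Those of the hypoxia and cycling splits cover the scatter of their own sets. Counting limits cover counting error only.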

Additional observations from a re-analysis of the deposited data

Results flagged for a closer look

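Of 56 groups of 4 mice examined for a value far from the other 3, 4 had one, and chance alone gives about 1 in 20. Cox7a1 in macrophages was at 10.9 CPM in mouse CaMKK2 KO 2, against 5.91 to 6.01 CPM in the other CaMKK2 KO mice. The summed members stood at 20391 CPM in macrophages of mouse WT 3, above 19795 to 19888 CPM in the other WT mice. Mouse WT 1 was the low value in T cells, with 18954 CPM from 37 cells, and in CD8 T cells, with 19554 CPM from 17 cells. No member in 65 pairs of member and class comparison moved in opposite directions in all WT and all CaMKK2 KO mice.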

How the results depend on the processing

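Of the counts and summed levels under alternatives, 489 stayed within 1.5 times or 1 SD of the value reported and 85 moved, and no named member examined under them changed sign. The members' median log2 ratio did change sign with DESeq2 and TMM for lymphocytes against myeloid cells (-0.03 and -0.11) and for pDC against cDC2 (-0.03 and -0.21), and without cycling cells for T against NK cells (-0.02). Between genotypes it did so under 3 of 16 alternatives in classical monocytes and NK cells, 1 in macrophages and T cells, 5 in microglia and 0 in B cells, at values between -0.09 and 0.04. WT mice could not be paired with CaMKK2 KO mice, because the hashtag numbers only name a mouse within its genotype. Comparisons between classes or states did pair sums of the same mouse. The stricter gate and the exclusion of cycling cells were not run for the hypoxia and cycling splits.

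Between genotypes, the 1 NK member higher became 0 with TMM scaling, the stricter gate, totals without mitochondrial and ribosomal genes, DESeq2, cycling cells left out or at least 50 UMIs, and 2 with outlying cells kept. At 1 UMI the NK member higher was Ndufa4 (0.65) in place of Ndufv3, and with outlying cells kept both were called (0.70 and 0.35). NK members lower were 1 at 1 UMI, with outlying cells kept and without mitochondrial and ribosomal genes, each time Ndufaf4 (-0.57, -0.64 and -0.70). T members lower were 1 with that total and with DESeq2, and DESeq2 called 1 higher in macrophages and in classical monocytes. Leaving out single mice gave 0 to 3 higher and 0 to 1 lower in NK cells, 0 to 2 higher in B cells, 0 to 1 higher in classical monocytes and 0 elsewhere. Without mouse CaMKK2 KO 3 there were 3 higher (Ndufa3, Ndufa4, Ndufv3) and 1 lower (Atp5g2) in NK cells, 2 higher in B cells and 1 in classical monocytes.

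For T against NK cells, 16 higher became 9 without cycling cells and 6 in WT mice alone, and 2 lower became 1 with the stricter gate, 5 with DESeq2 or without cycling cells and 0 in CaMKK2 KO mice alone. For T and NK cells against macrophages and classical monocytes the counts higher were 20 with TMM, 74 without mitochondrial and ribosomal genes and 27 with DESeq2, and lower 39, 6 and 31. For classical monocytes TMM gave 17 higher and 30 lower and DESeq2 16 higher. For cycling T cells 33 were higher in CaMKK2 KO and 21 in WT mice alone, with 0 lower in WT, and for cycling macrophages 8 in CaMKK2 KO mice alone and 28 with TMM. For hypoxia-high macrophages DESeq2 gave 5 higher, and lower were 12 in CaMKK2 KO and 28 in WT mice alone, 14 with DESeq2 and 19 with TMM. For pDC against cDC2 higher were 1 with TMM, 7 with DESeq2, 5 in CaMKK2 KO and 7 in WT mice alone, and lower 22, 16, 2 and 3. The cause of these shifts was not tested.

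Leaving out single mice gave, higher and lower, 13 to 19 and 1 to 3 for T against NK cells, 37 to 47 and 10 to 11 for lymphocytes against myeloid cells, 4 to 6 and 47 to 52 for classical monocytes, 2 and 62 to 65 for microglia, 11 to 13 and 1 to 9 for pDC, 2 to 3 and 36 to 41 for hypoxia-high macrophages, 31 to 49 and 0 for cycling macrophages, and 45 to 54 and 1 to 3 for cycling T cells, where 1 was lower without mouse CaMKK2 KO 3.

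Without mitochondrial and ribosomal genes the summed levels were 31867 CPM in T cells, 30792 in NK cells, 27681 in pDC, 27635 in cDC1, 25169 in macrophages, 24800 in cDC2, 22516 in classical monocytes, 22119 in B cells, 19587 in non-classical monocytes, 18832 in mature dendritic cells and 17022 in microglia. Macrophages were at 20484 CPM with outlying cells kept, 19558 without cycling cells and 19484 as a mean of single cells, which gave 19718 in NK and 19844 in T cells. Depth limits the rare members, the smaller classes and B cells most.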
